A study of Homo sapiens with 12 samples.

Results

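Transcript levels of 10 epithelial genes were followed across a pair of human pancreatic carcinoma cell lines, MIA PaCa-2 and PANC-1. They were EPCAM, CDH1, ESRP1, ESRP2, ELF3, GRHL2, OVOL2, TMPRSS2, ST14 and SPINT1, chosen by name from the 63677 gene rows of the count table through their Ensembl identifiers. All 10 symbols were found in the table. Of these genes, 9 were among the 17862 that passed the filter on low counts. GRHL2 did not pass and was not tested.

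Each line received either a negative control siRNA or a mixture of siRNAs that target RBM3, which encodes an RNA-binding protein induced by cold, delivered with lipofectamine at 25 nM. Cells had grown for 72 h before the 4.5 h transfection and were collected the next day, so the controls were transfected too. The 4 groups held 3 libraries each, numbered in the labels as 1, 2 and 4 (both controls), 1, 2 and 5 (RBM3 siRNA, MIA PaCa-2) and 1, 2 and 3 (RBM3 siRNA, PANC-1). Separate cultures are not stated in the labels for the replicates of a group. The p-values therefore reflect spread among these libraries, part or all of which may be technical.

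Epithelial cells hold together through adherens junctions, in which E-cadherin (CDH1) binds its like on the next cell, and through EpCAM (EPCAM), a surface glycoprotein of many carcinomas. Transcription factors such as GRHL2, OVOL2 and ELF3 and the splicing regulators ESRP1 and ESRP2 sustain the epithelial programme, while ZEB and SNAI proteins repress many of its genes. The membrane proteases matriptase (ST14) and TMPRSS2 act at the surface of epithelial cells, and SPINT1, also called HAI-1, inhibits matriptase. In bulk RNA, fewer cells of a type and less RNA per cell cannot be told apart.

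Total counts ran from 14217185 to 39652502 per library. The 3 PANC-1 libraries with RBM3 siRNA were all deeper (31440551 to 33341322) than the PANC-1 controls (14217185 to 23993638). RBM3 was at 207 to 277 CPM (counts scaled to library size, after TMM normalisation) in MIA PaCa-2 controls and at 37.4 to 61.9 CPM with its siRNA, and at 426 to 567 and 83.0 to 195 CPM in PANC-1. The simple keratins KRT8, KRT18, KRT19 and KRT7 summed to 1939 to 3429 CPM in MIA PaCa-2 and 3887 to 7468 CPM in PANC-1, although KRT7 was at no more than 0.234 CPM in MIA PaCa-2. Leukocyte markers summed to no more than 2.62 CPM and endothelial markers to no more than 8.04 CPM, with PECAM1 at 0 in all 12 libraries. PANC-1 RBM3 siRNA replicate 3 stood apart in transcripts otherwise found in MIA PaCa-2. COL1A2 was at 441 CPM in it, against 0.0461 to 1.67 CPM in the other PANC-1 libraries and 899 to 1814 CPM in MIA PaCa-2. ALDH1A1 was at 682 CPM there, against 0.248 to 2.14 and 1137 to 1475 CPM. GJB5 was at 14.1 CPM there, against 0 and 10.5 to 15.2 CPM, so the share of the MIA PaCa-2 level differed between these genes. The labels name a pair of media without assigning them, so line and medium cannot be told apart. For some results that include replicate 3, values without it are given as well. The others include it.

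The differences that passed the test in these genes were all between the lines. PANC-1 had higher levels of EPCAM, CDH1, ESRP2, ELF3, TMPRSS2, ST14 and SPINT1 under control siRNA, or 7 of the 9 tested genes, and none was lower. Among all 17862 genes, 26% were higher in PANC-1, 24.8% were lower and 50.8% differed in either direction (edgeR, Benjamini-Hochberg adjusted p under 0.05). The median log2 fold change of the 9 genes was 4.82, against 0.0014 over all tested genes. Under RBM3 siRNA the same 7 were higher, beside 24.2% of all genes higher, 19.3% lower and 43.6% in either direction, with a median of 3.63 against -0.0042. Without PANC-1 RBM3 siRNA replicate 3 those 7 still passed in edgeR, with EPCAM at 9.27 and ESRP2 at 6.53. Without overlap between the lines were 6 of the genes (all of the 7 but ELF3), beside 31.4% of all tested genes higher in this way under control siRNA and 28.5% under RBM3 siRNA. With the filter on low counts applied to MIA PaCa-2 alone, 5 of the 9 (EPCAM, CDH1, ESRP2, OVOL2 and SPINT1) did not pass, so they were tested through their PANC-1 counts. A difference between the lines was therefore built into their being tested, and these counts describe the genes rather than support a statement about the group.

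**Figure D1:**
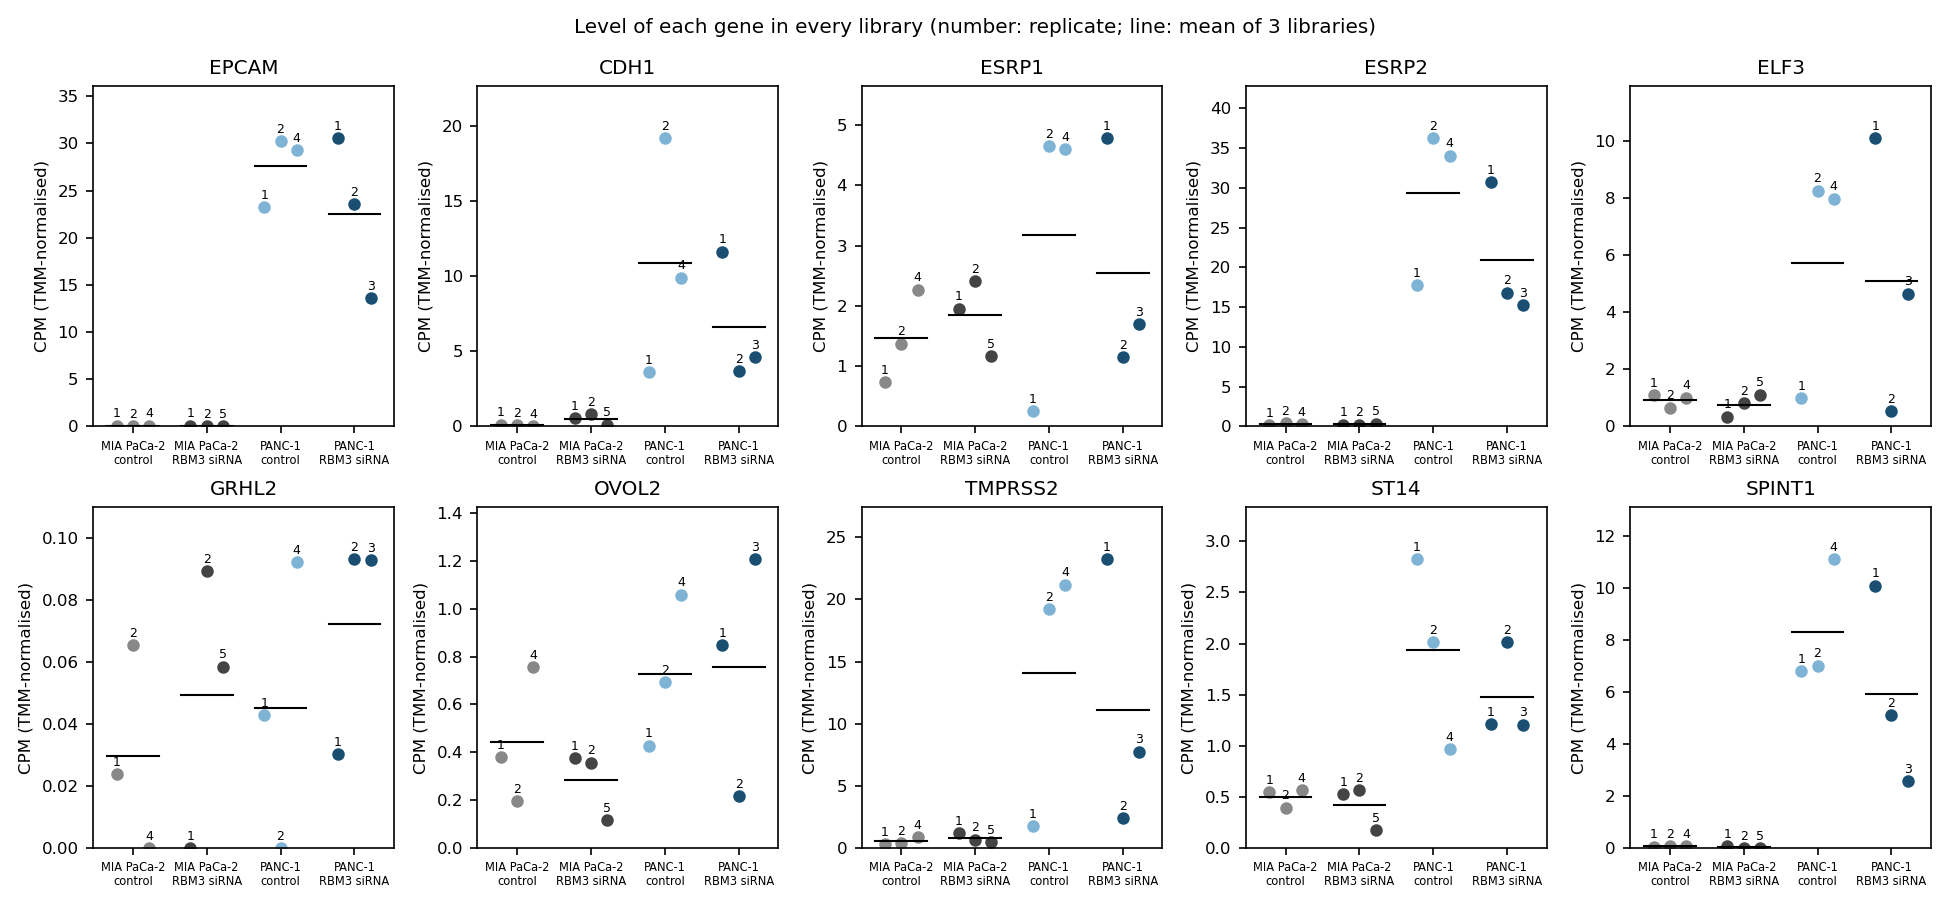
TMM-normalised CPM of each of the 10 genes (y axis, a separate linear scale for each gene) in every library, by line and siRNA (x axis); numbers are replicates and the line is the mean of 3. EPCAM, CDH1, ESRP2 and SPINT1 lie near 0 in MIA PaCa-2, and PANC-1 control replicate 1 and RBM3 siRNA replicate 2 are the lowest PANC-1 points for CDH1, ESRP1, ELF3, OVOL2 and TMPRSS2.

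EPCAM (ENSG00000119888, chromosome 2) was nearly absent from MIA PaCa-2 and was the most abundant of the 10 genes per length in PANC-1. MIA PaCa-2 controls 1, 2 and 4 had 0.0952, 0 and 0.0631 CPM, from 4, 0 and 1 counts. With RBM3 siRNA, replicates 1, 2 and 5 had 0.0752, 0.0297 and 0 CPM. All of these but the deepest control lay under the level that 3 counts represent in their library, which was 0.0757 to 0.211 CPM over the 12 libraries. PANC-1 controls 1, 2 and 4 had 23.2, 30.2 and 29.3 CPM (mean 27.6 ± 3.80, SD, n = 3). PANC-1 replicates 1, 2 and 3 with RBM3 siRNA had 30.6, 23.5 and 13.6 CPM (22.6 ± 8.54, SD, n = 3). No MIA PaCa-2 library came near any PANC-1 library. Under control siRNA the sums were 1615 counts in PANC-1 and 5 in MIA PaCa-2, a depth-scaled ratio of 397 (95% counting interval 169.8 to 1225). In edgeR this was a log2 fold change of 8.61 (SE 0.56; adjusted p 2.89e-07). Under RBM3 siRNA the ratio, against 3 counts, was 583 (199 to 2830). A 2-sided exact permutation test of 3 against 3 libraries cannot go below 0.1, the value it gave for each gene whose groups did not overlap.

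CDH1 (ENSG00000039068, chromosome 16), the gene of E-cadherin, was also a PANC-1 transcript, but it spread more widely there than EPCAM did. MIA PaCa-2 controls had 0.119, 0.0654 and 0 CPM, from 5, 1 and 0 counts, and the RBM3 siRNA libraries had 0.564, 0.832 and 0.117 CPM, from 15, 28 and 2 counts. PANC-1 controls 1, 2 and 4 had 3.59, 19.2 and 9.90 CPM (10.9 ± 7.86, SD, n = 3), and siRNA replicates 1, 2 and 3 had 11.6, 3.66 and 4.61 CPM (6.64 ± 4.36, SD, n = 3). Control 2 was 5.35 times as high as control 1, within a single group. Every PANC-1 library still exceeded every MIA PaCa-2 library. The line difference was a log2 fold change of 7.05 (SE 0.96) under control siRNA, with an edgeR adjusted p of 1.05e-04, and 3.63 (SE 0.75) under RBM3 siRNA, with an edgeR adjusted p of 0.00243. The count ratio under control siRNA was 118 (95% counting interval 53.9 to 323), from 576 against 6 counts.

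The paralogous splicing regulators ESRP1 and ESRP2 behaved differently between the lines. ESRP2 (ENSG00000103067, chromosome 16) had 0.190, 0.393 and 0.315 CPM in MIA PaCa-2 controls and 0.226, 0.208 and 0.350 CPM with RBM3 siRNA. In PANC-1 it was at 17.8, 36.3 and 34.0 CPM in controls 1, 2 and 4 (29.4 ± 10.1, SD, n = 3) and 30.7, 16.8 and 15.3 CPM with RBM3 siRNA (20.9 ± 8.51, SD, n = 3). The lines did not overlap. The log2 fold change was 6.70 (SE 0.47; edgeR adjusted p 5.01e-07) under control siRNA and 6.35 (SE 0.46; 6.64e-07) under RBM3 siRNA.

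ESRP1 (ENSG00000104413) was measurable in both lines, and it was the highest of the 10 genes per length in MIA PaCa-2. There it was at 0.738, 1.37 and 2.27 CPM in controls and 1.96, 2.41 and 1.17 CPM with RBM3 siRNA. PANC-1 controls 1, 2 and 4 had 0.257, 4.65 and 4.61 CPM, and siRNA replicates 1, 2 and 3 had 4.79, 1.15 and 1.70 CPM. PANC-1 control 1, with 6 counts, lay below all 6 MIA PaCa-2 libraries, so the lines overlapped. The line difference was 1.14 (SE 0.82) under control siRNA, with an edgeR adjusted p of 0.264, and 0.45 (SE 0.79) under RBM3 siRNA, with one of 0.663. Without PANC-1 control 1 the control value was 1.71 and passed in edgeR (adjusted p 0.0381).

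ELF3 (ENSG00000163435, chromosome 1), an ETS-family transcription factor of epithelia, showed the widest range of the 10 across PANC-1 apart from GRHL2. PANC-1 controls 1, 2 and 4 were at 0.984, 8.25 and 7.97 CPM, and RBM3 siRNA replicates 1, 2 and 3 at 10.1, 0.527 and 4.64 CPM. The highest was 19.2 times the lowest. MIA PaCa-2 controls were at 1.09, 0.654 and 1.01 CPM and siRNA libraries at 0.338, 0.803 and 1.11 CPM. PANC-1 control 1 and siRNA replicate 2 thus fell within the MIA PaCa-2 range, while the other 4 were above it. The line difference passed in edgeR with a log2 fold change of 2.61 (SE 0.92; adjusted p 0.0321) under control siRNA and 2.78 (SE 0.93; 0.0293) under RBM3 siRNA. These calls did not hold under several alternatives. In limma-voom the adjusted p was 0.169 and 0.156. Under control siRNA the edgeR adjusted p was 0.0703, 0.0923 and 0.0765 without MIA PaCa-2 control 1, 2 or 4, and 0.0879 and 0.0873 without PANC-1 control 2 or 4. Under RBM3 siRNA it was 0.0971 and 0.0781 without MIA PaCa-2 siRNA replicate 1 or 2, and 0.139 without PANC-1 siRNA replicate 1.

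The RefSeq promoter table used here held only 2 of the 10 genes, ELF3 and SPINT1, so no others of the 10 were searched. Each had a window with CACCTG, the E-box to which ZEB and SNAI repressors bind. The search covered 250 bases before to 50 after each start on both strands, for CACCTG, which reads CAGGTG on the opposite strand, and for the GRHL consensus AACCGGTT, which reads the same on both strands and overlaps neither form of the E-box. The ELF3 window, chr1:202010337-202010636 on the plus strand of GRCh38.p14, held 1 E-box at -120, in capitals below within the 250 bases upstream of the start. SPINT1 has 2 starts in the table. The window of the second, chr15:40844227-40844526 on the plus strand, held the E-box in its CAGGTG form at -26, shown within 30 bases, and the window of the first held none. No window of either gene held the GRHL consensus.
ELF3 upstream: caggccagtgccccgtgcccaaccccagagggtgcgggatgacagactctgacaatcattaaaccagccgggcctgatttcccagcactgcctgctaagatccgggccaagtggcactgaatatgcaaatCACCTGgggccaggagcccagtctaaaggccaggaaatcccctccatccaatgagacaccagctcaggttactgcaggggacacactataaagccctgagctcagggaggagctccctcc
SPINT1 second start: tcccgggctgatCAGGTGtgtctcctcctc
Of 35116 promoters of the same length, 20.6% held the E-box and 0.134% the GRHL consensus. These matches describe letters, not bound sites.

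GRHL2 and OVOL2, transcription factors that maintain epithelial identity and act against ZEB1 in many epithelia, were at or near the limit of these libraries. GRHL2 (ENSG00000083307) had 16 counts in all. MIA PaCa-2 had 1, 1 and 0 counts in controls and 0, 3 and 1 with RBM3 siRNA, and PANC-1 had 1, 0 and 2 in controls and 1, 3 and 3 with RBM3 siRNA. No library exceeded 3 counts, so a difference between lines or siRNAs was not detectable at this depth. OVOL2 (ENSG00000125850, chromosome 20) had 0.381, 0.196 and 0.757 CPM in MIA PaCa-2 controls and 0.376, 0.357 and 0.117 CPM with RBM3 siRNA. In PANC-1 it was at 0.428, 0.694 and 1.06 CPM in controls and 0.849, 0.217 and 1.21 CPM with RBM3 siRNA. Its groups overlapped in every comparison. The line difference was 0.72 (SE 0.67; edgeR adjusted p 0.389) under control siRNA and 1.34 (SE 0.66; 0.116) under RBM3 siRNA. Without PANC-1 siRNA replicate 2 the latter was 1.77 and passed in edgeR (adjusted p 0.0388).

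TMPRSS2 (ENSG00000184012, chromosome 21), a membrane serine protease, divided the PANC-1 libraries much as ELF3 did. PANC-1 controls 1, 2 and 4 were at 1.75, 19.2 and 21.2 CPM (14.1 ± 10.7, SD, n = 3), and RBM3 siRNA replicates 1, 2 and 3 at 23.2, 2.42 and 7.73 CPM (11.1 ± 10.8, SD, n = 3). MIA PaCa-2 was at 0.286, 0.393 and 0.883 CPM in controls and 1.17, 0.654 and 0.467 CPM with RBM3 siRNA. Unlike ELF3, TMPRSS2 was above every MIA PaCa-2 library even in the lowest PANC-1 library. Its line difference was 4.82 (SE 1.02; edgeR adjusted p 0.00201) under control siRNA and 3.84 (SE 0.95; 0.00693) under RBM3 siRNA.

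ST14 (ENSG00000149418, chromosome 11), which encodes matriptase, was low in both lines. It had 0.547, 0.393 and 0.568 CPM in MIA PaCa-2 controls and 0.526, 0.565 and 0.175 CPM with RBM3 siRNA. In PANC-1 it was at 2.82, 2.01 and 0.967 CPM in controls 1, 2 and 4 and 1.21, 2.01 and 1.21 CPM in siRNA replicates 1, 2 and 3. All PANC-1 libraries were above all MIA PaCa-2 libraries, by a log2 fold change of 1.92 (SE 0.49; edgeR adjusted p 0.00619) under control siRNA and 1.74 (SE 0.48; 0.0127) under RBM3 siRNA. The latter call was lost without PANC-1 siRNA replicate 2, where the value was 1.44 with an edgeR adjusted p of 0.0526.

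SPINT1 (ENSG00000166145, chromosome 15), the inhibitor of matriptase, was all but missing from MIA PaCa-2. There 2, 1 and 1 counts were found in controls and 2, 0 and 0 with RBM3 siRNA. PANC-1 controls 1, 2 and 4 had 6.80, 7.01 and 11.1 CPM (8.30 ± 2.42, SD, n = 3), and RBM3 siRNA replicates 1, 2 and 3 had 10.1, 5.11 and 2.57 CPM (5.93 ± 3.83, SD, n = 3). The lines did not overlap. The log2 fold change under control siRNA was 7.11 (SE 0.75; edgeR adjusted p 1.35e-05), and the count ratio was 154 (95% counting interval 59.8 to 567). Under RBM3 siRNA, against 2 counts in MIA PaCa-2, the ratio was 230 (63.5 to 1906).

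**Figure D2:**
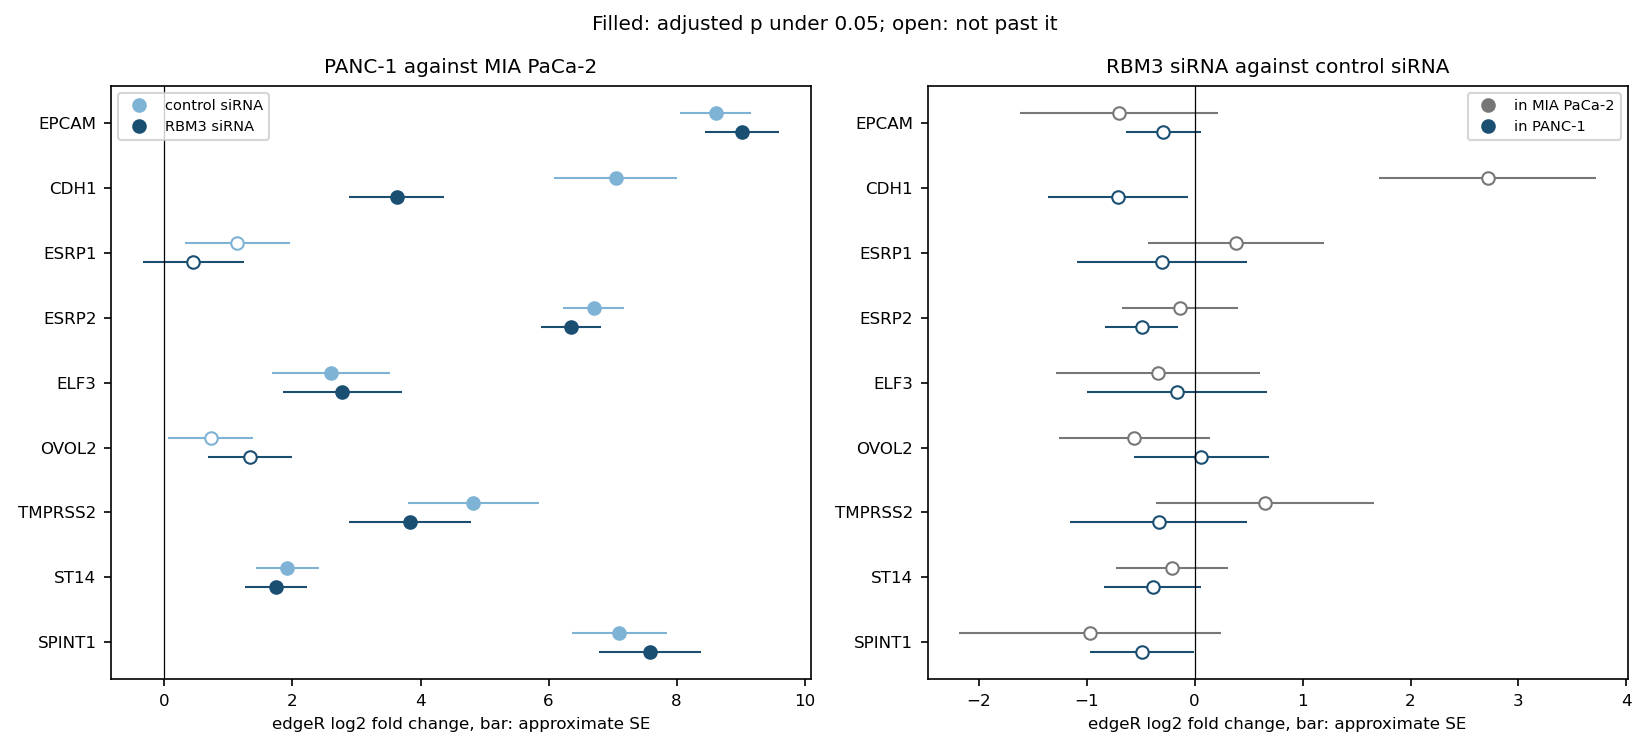
edgeR log2 fold change (x axis) of the 9 tested genes (y axis) for PANC-1 against MIA PaCa-2 under each siRNA (left) and for the siRNA comparison within each line (right); bars are the approximate SE and filled points have an adjusted p under 0.05. In the left panel 7 of 9 points are filled for each siRNA, and in the right panel none is filled.

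Set per kilobase of exon, the order of the genes also differed between the lines. In PANC-1, over 6 libraries, EPCAM was at 9.95 ± 2.59 CPM per kb (SD, n = 6), ESRP2 at 4.52 ± 1.72, TMPRSS2 at 2.06 ± 1.59, SPINT1 at 2.01 ± 0.889 and CDH1 at 1.42 ± 0.995. Below them came ELF3 at 0.752 ± 0.558, ESRP1 at 0.586 ± 0.421, ST14 at 0.392 ± 0.162, OVOL2 at 0.341 ± 0.173 and GRHL2 at 0.00965 ± 0.00658 CPM per kb. Within a library, EPCAM exceeded ESRP2, ESRP2 exceeded TMPRSS2, CDH1 exceeded ELF3 and OVOL2 exceeded GRHL2 in 6 of 6 libraries. TMPRSS2 exceeded SPINT1, SPINT1 exceeded CDH1 and ESRP1 exceeded ST14 in only 4 of 6, ELF3 exceeded ESRP1 in 5, and ST14 exceeded OVOL2 in 3, so these neighbours were not separated. In MIA PaCa-2 ESRP1 led, at 0.339 ± 0.136 CPM per kb (SD, n = 6), above OVOL2 at 0.167 ± 0.102 in 5 of 6 libraries. No neighbours there kept their order in all 6 libraries. EPCAM, first in PANC-1, was eighth of the 10 in MIA PaCa-2, at 0.0174 ± 0.0159 CPM per kb. These orders rest on the union exon length, which was 2519 bp for EPCAM and 5563 bp for ESRP2. In CPM without length, the PANC-1 means of EPCAM and ESRP2 were 25.07 and 25.14.

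RBM3 siRNA changed none of these genes detectably in either line. In MIA PaCa-2, 0 of 9 passed in edgeR, beside 2 of all genes (0.0112%), and 525 genes (2.94%) had an unadjusted p under 0.05. The groups of all 10 genes overlapped, whereas 8.04% of all tested genes had groups that did not. CDH1 had the largest difference, with 45 counts over the siRNA libraries and 6 over the controls and a log2 fold change of 2.72 (SE 1.00). Its unadjusted p was 0.0184, and its edgeR adjusted p was 1. The groups overlapped because siRNA replicate 5, at 0.117 CPM, lay below control 1, at 0.119 CPM. The other 8 values ran from -0.97 (SPINT1, SE 1.21) to 0.65 (TMPRSS2, SE 1.01).

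In PANC-1 the count was again 0 of 9, beside 0 of all genes (0%) and 736 genes (4.12%) at an unadjusted p under 0.05. All 10 genes had overlapping groups, against 6.52% of all genes without overlap. Point estimates were below 0 for 8 of the 9, with a median log2 fold change of -0.33 beside 0.03 over all genes, and each SE was large. EPCAM was at -0.29 (SE 0.35), CDH1 at -0.71 (SE 0.65), ESRP1 at -0.30 (SE 0.78), ESRP2 at -0.49 (SE 0.34) and ELF3 at -0.17 (SE 0.84). TMPRSS2 was at -0.33 (SE 0.82), ST14 at -0.39 (SE 0.45), SPINT1 at -0.49 (SE 0.48) and OVOL2 at 0.06 (SE 0.63). The edgeR adjusted p was 0.9997 for each. RBM3 siRNA replicate 3 was the lowest of the 6 PANC-1 libraries for EPCAM, ESRP2 and SPINT1, all near 0 in MIA PaCa-2, and it was the library with COL1A2 and ALDH1A1. For CDH1, also near 0 in MIA PaCa-2, it was not the lowest, at 4.61 CPM against 3.59 CPM in control 1 and 3.66 CPM in siRNA replicate 2. Without it EPCAM was at -0.05, ESRP2 at -0.33, SPINT1 at -0.15, CDH1 at -0.53, TMPRSS2 at -0.16 and OVOL2 at -0.46. The part of those transcripts in the lower levels was not tested. As all 3 siRNA libraries were deeper than the controls, depth and siRNA cannot be told apart in PANC-1.

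A difference in the response to RBM3 siRNA between the lines passed in edgeR for 0 of the 9 genes and for 0 of all genes (0%; 532 genes, or 2.98%, at an unadjusted p under 0.05). CDH1 again gave the largest value, with a response in PANC-1 below that in MIA PaCa-2 by a log2 difference of -3.42 (SE 1.20). Its unadjusted p was 0.0138 and its edgeR adjusted p 0.9999. In simulated counts, the edgeR test of the PANC-1 siRNA comparison recovered 20% of the planted 2-fold changes and 63% of the 4-fold changes among 17862 genes, so changes of these sizes could be missed.

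PANC-1 control replicate 1 and PANC-1 RBM3 siRNA replicate 2 had low levels of several of these genes although they belong to different siRNA groups. This pair was singled out with measured values known, so each library's value is described and nothing is tested. Both lay below the other 4 PANC-1 libraries for CDH1, ESRP1, ELF3 and TMPRSS2, or 4 of the 8 genes with a mean of at least 1 CPM in PANC-1. Both lay above the other 4 libraries for 1 of the 8, ST14. Over all genes at that level, 23% had both libraries below the other 4 and 21.8% had both above. For TMPRSS2 the pair stood at 1.75 and 2.42 CPM against 7.73 to 23.2 CPM in the others. For ELF3 it stood at 0.984 and 0.527 against 4.64 to 10.1 CPM, and the lowest of the other libraries was 4.72 times the higher of the pair. For ESRP1 it stood at 0.257 and 1.15 against 1.70 to 4.79 CPM, and for CDH1 at 3.59 and 3.66 against 4.61 to 19.2 CPM. OVOL2, at a mean of 0.742 CPM in PANC-1, was also lowest in the pair. Among keratins, KRT19 was at 953 and 759 CPM in the pair against 1151 to 1913 CPM, while KRT8, KRT18 and KRT7 did not set both libraries apart. The collagen gene COL1A1, a fibroblast marker, was at 232 and 227 CPM against 61.8 to 142 CPM. PDGFRB and COL1A2 did not set the pair apart, and DCN and LUM were at no more than 0.0856 CPM. Their part in these levels was not tested.

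ST14 was not low in the pair. It was at 2.82 and 2.01 CPM there, and the second value was barely above control 2, which also rounds to 2.01 CPM. EPCAM varied least, with 23.2 and 23.5 CPM in the pair and a ratio of 2.25 between the highest and lowest of the 6 libraries. That ratio was 2.38 for ESRP2, 2.92 for ST14, 4.32 for SPINT1, 5.35 for CDH1, 13.2 for TMPRSS2, 18.7 for ESRP1 and 19.2 for ELF3. EPCAM thus varied over a narrower range than ELF3 and ESRP1. Their counts in PANC-1 were lower, at 17 to 333 and 6 to 158 against 436 to 1009. The ratios did not divide adhesion genes from regulators, since the regulator ESRP2 was close to EPCAM and the adhesion gene CDH1 was higher. Without RBM3 siRNA replicate 3, the pair lay below the other 3 libraries for 7 of the 8 genes, all but ST14. Over all genes the share below was then 30.1% and the share above 27.3%.

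**Figure D3:**
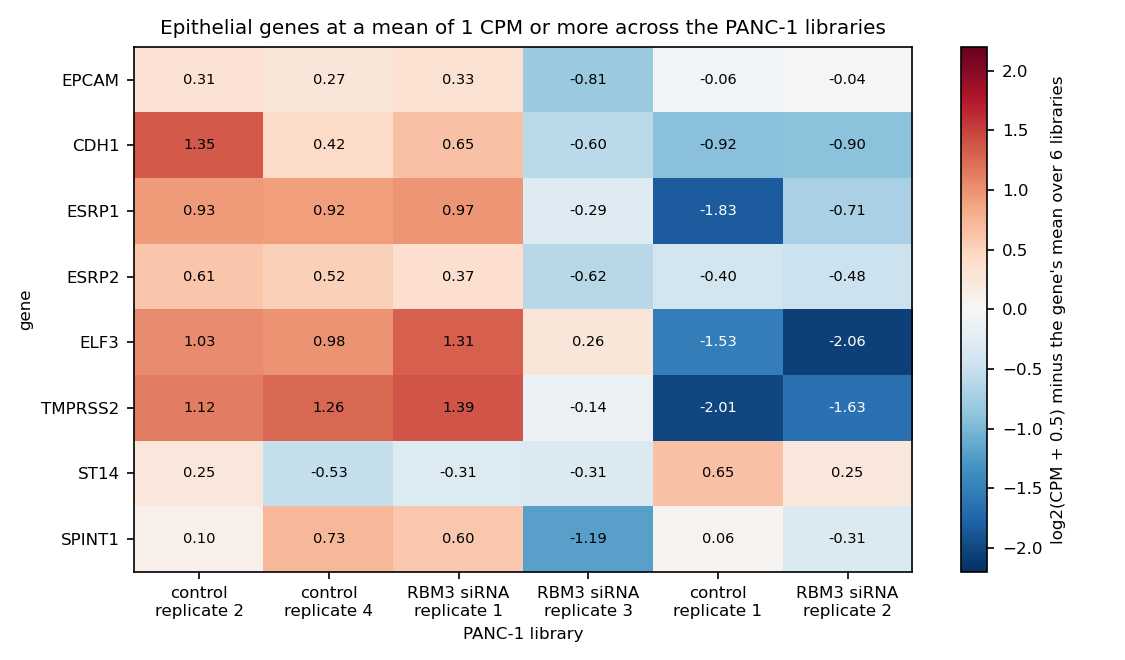
Heat map of log2(CPM + 0.5), centred on each gene's mean over the 6 PANC-1 libraries, for the 8 genes with a mean of at least 1 CPM (rows) in each library (columns). Control replicate 1 and RBM3 siRNA replicate 2 are at -1.53 or below for ELF3 and TMPRSS2 and RBM3 siRNA replicate 3 is lowest for EPCAM, ESRP2 and SPINT1.

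Leaving out both libraries left the siRNA comparison in PANC-1 at 0 of 9 genes called. EPCAM was then at -0.43, CDH1 at -0.83, ESRP1 at -0.51, ESRP2 at -0.61, ELF3 at -0.14, TMPRSS2 at -0.38, ST14 at -0.27, SPINT1 at -0.52 and OVOL2 at 0.21, with edgeR adjusted p-values from 0.920 to 0.998. The line difference of ESRP1 under control siRNA then passed in edgeR, at 1.71 (adjusted p 0.0225), and that of OVOL2 under RBM3 siRNA at 1.78 (0.0335).

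Repressors of epithelial genes were examined in the same libraries. ZEB1, a zinc-finger repressor of CDH1, was at 50.4 and 71.7 CPM in PANC-1 control 1 and RBM3 siRNA replicate 2 and at 37.3 to 45.3 CPM in the other 4. SNAI1, a second CDH1 repressor, was at 26.4 and 25.0 CPM in the pair against 14.2 to 18.1 CPM. TWIST2, a basic helix-loop-helix factor, went the other way, at 1.20 and 1.24 CPM against 1.61 to 2.36 CPM. These were 2 above and 1 below among the 3 repressors at 1 CPM or more, beside 21.8% and 23% of all genes. Under 1 CPM, ZEB2 was lower in the pair, at 0.727 and 0.806 against 0.835 to 1.01 CPM. SNAI2, also under 1 CPM, was higher there, at 0.214 and 0.372 against 0 to 0.186 CPM. Any part of the repressors in the levels of CDH1 or ESRP1 was not tested. Between the lines under control siRNA, ZEB1 differed by -0.52 (SE 0.27; edgeR adjusted p 0.130) and SNAI1 by 0.064 (SE 0.44; 0.914). ZEB2 was higher in PANC-1, at 0.904 ± 0.154 against 0.109 ± 0.0331 CPM (SD, n = 3; edgeR adjusted p 7.00e-04), and so was TWIST2, at 1.80 ± 0.581 against 0.0377 ± 0.0338 CPM (SD, n = 3; 6.44e-05). SNAI2 and TWIST1 were at no more than 0.372 CPM in any library and were not tested. Of the 6 repressors, 2 of 4 tested were higher in PANC-1 and none lower (median log2 fold change 1.59), beside 26% and 24.8% of all genes. ZEB2 and TWIST2 had at most 3 counts in any MIA PaCa-2 library and were likewise tested through their PANC-1 counts, so this count is a description.

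Of 16 junction genes that work beside CDH1 and EPCAM 15 were tested, and under control siRNA 4 were higher in PANC-1 and 3 lower (median log2 fold change -0.16). These counts were near the shares of all genes, 26% higher and 24.8% lower. N-cadherin (CDH2), a cadherin typical of mesenchymal and neural cells, was at 39.3 ± 10.4 CPM in PANC-1 controls and 0.0369 ± 0.0329 CPM in those of MIA PaCa-2 (SD, n = 3), with a count ratio of 919 (95% counting interval 314 to 4460; edgeR adjusted p 1.35e-07). PANC-1 thus held both CDH1 and CDH2 transcripts, and MIA PaCa-2 nearly none of either. NECTIN1, an adherens junction receptor, was higher in PANC-1 by 2.33 (SE 0.33; edgeR adjusted p 1.42e-04), and AFDN, the afadin that anchors nectins to actin, by 1.22 (SE 0.22; 6.94e-04).

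Among these partners, 14 had at least 1 CPM in PANC-1, and 5 were lowest in PANC-1 control 1 and RBM3 siRNA replicate 2 while none was highest there, beside 23% of all genes below and 21.8% above. The desmosomal plaque gene DSP was at 10.4 and 18.7 CPM in the pair against 41.5 to 70.1 CPM. Plakoglobin (JUP) was at 216 and 189 against 278 to 403 CPM. NECTIN2 was at 81.8 and 67.2 against 134 to 154 CPM, and PKP2 and CDH3 also had both of the pair lowest. CDH2 was at 30.8 and 34.1 CPM in the pair, inside the range of the others, 22.3 to 50.9 CPM. Those named here for standing apart in these 2 libraries were picked once their values were known.

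Of 16 further genes of epithelial transcription and polarity, 11 were tested and 5 were higher and 1 lower in PANC-1 under control siRNA (median log2 fold change 0.88), beside 26% and 24.8% of all genes. GRHL3, FOXA2 and AP1M2 did not pass the filter in MIA PaCa-2 alone, and EHF did not in PANC-1 alone. FOXA2, an endoderm transcription factor, was at 69.6 to 80.2 CPM in PANC-1 controls and at 0 in the MIA PaCa-2 controls. AP1M2, an adaptor subunit for sorting to the basolateral membrane, had 556 counts against 2, a ratio of 342 (95% counting interval 94.2 to 2829). GRHL3, a relative of GRHL2, had 408 counts against 2, a ratio of 251 (69.0 to 2078). GRHL1 was at 2.98 to 5.30 CPM over the MIA PaCa-2 libraries and 5.48 to 7.79 CPM over those of PANC-1. EHF, like ELF3 an ETS factor of epithelia, was lower in PANC-1, at 0.156 ± 0.0763 against 58.2 ± 46.5 CPM (SD, n = 3), or a log2 difference of -8.42 (SE 1.35; edgeR adjusted p 3.35e-04). ELF3 and EHF thus differed between the lines in opposite directions. Of the 10 genes of this list with 1 CPM or more in PANC-1, 4 (GRHL1, FOXA1, LLGL2 and PATJ) were lowest in PANC-1 control 1 and RBM3 siRNA replicate 2, and 2 (KLF4 and KLF5) were highest there, beside 23% and 21.8% of all genes.

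Of 9 genes of the matriptase pathway beyond ST14 and SPINT1, 6 were tested, and 5 were higher in PANC-1 under control siRNA and none lower (median log2 fold change 3.58), beside 26% and 24.8% of all genes. HGF and HGFAC, 2 of the 6, did not pass the filter in MIA PaCa-2 alone. SPINT2, a second inhibitor of matriptase, was at 398 ± 32.7 against 68.1 ± 17.4 CPM (SD, n = 3), or a log2 difference of 2.55 (SE 0.25; edgeR adjusted p 7.69e-06), so an inhibitor was abundant in MIA PaCa-2 although SPINT1 was not. MST1R, a receptor for macrophage-stimulating protein, was at 28.0 ± 6.15 against 0.391 ± 0.516 CPM (SD, n = 3). F2RL1, the protease-activated receptor PAR2, was higher by 4.60 (SE 0.62) and MET, the receptor of hepatocyte growth factor, by 2.07 (SE 0.37), with edgeR adjusted p-values of 9.27e-05 and 6.71e-04. F2RL1 was at 399.6 and 439 CPM in PANC-1 control 1 and RBM3 siRNA replicate 2, against 100.4 to 193 CPM in the other 4. Of the 5 genes of this list with 1 CPM or more in PANC-1, 1 (F2RL1) was highest in that pair and 0 were lowest. Over all genes these shares were 21.8% and 23%. SPINT2, MET, MST1R and HGF did not set the pair apart. Under RBM3 siRNA the line comparison called 4 junction partners higher and 2 lower, 5 and 1 of the transcription and polarity list, 5 and 0 of the matriptase pathway and 2 and 0 of the repressors, beside 24.2% of all genes higher and 19.3% lower. For RBM3 siRNA, 0 genes of these 4 lists passed in edgeR in either line. Among all tested genes only 2 (0.0112%) passed for MIA PaCa-2 and 0 for PANC-1, so these counts do not set the lists apart. Changes could be missed, as the PANC-1 siRNA comparison recovered 20% of 2-fold changes in simulated counts.

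**Figure D4:**
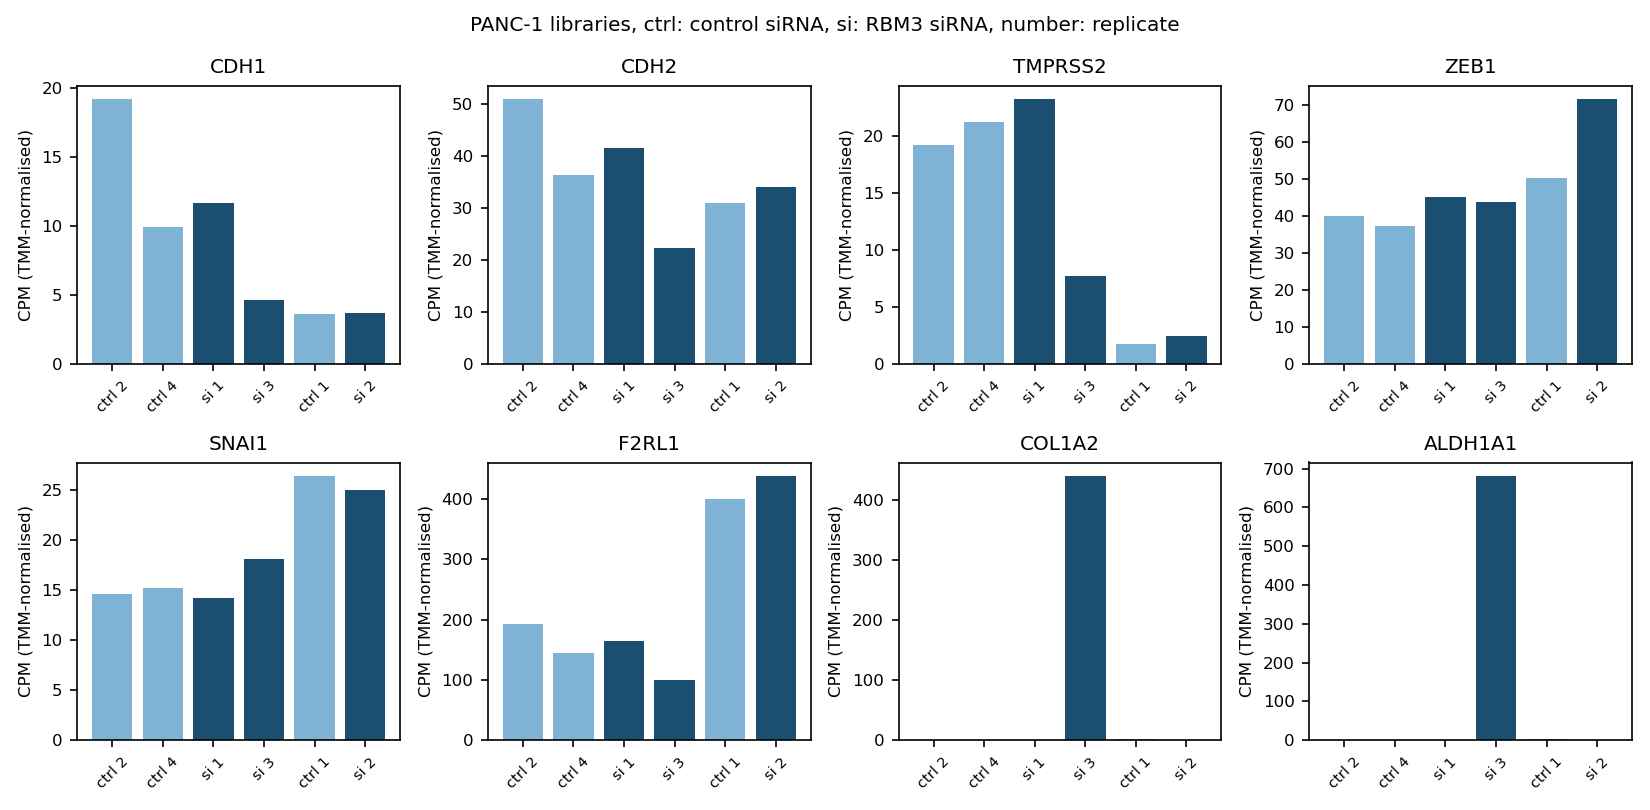
Bars give TMM-normalised CPM (y axis from 0) of 8 genes in the 6 PANC-1 libraries (x axis; ctrl, control siRNA; si, RBM3 siRNA; numbers are replicates). CDH1 and TMPRSS2 are lowest and ZEB1, SNAI1 and F2RL1 highest in control 1 and RBM3 siRNA replicate 2, while COL1A2 and ALDH1A1 mark RBM3 siRNA replicate 3.

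To find genes with the most similar pattern over the 6 PANC-1 libraries, each gene's log2(CPM + 0.5) was centred on its own mean. It was then compared with the median of the 8 epithelial genes, which was -0.66, 0.77 and 0.62 in controls 1, 2 and 4; the siRNA replicates 1, 2 and 3 had 0.62, -0.59 and -0.46. Among 9777 genes with a mean of at least 10 CPM, the smallest mean absolute log2 differences from it were those of GALM (0.0867), HOTAIR (0.0888), MSL3P1 (0.121), PPM1H (0.123) and FAAP100 (0.123), beside a median of 0.628 over all candidates. These 5 were the nearest of many candidates over only 6 libraries, and reads of the pseudogene MSL3P1 may be shared with its parent gene. ESRP2 (0.177) and CDH1 (0.251) lay nearest to that median among the 8 genes, which themselves form it, and ST14 (0.818) lay farthest. ELF3 (0.726), TMPRSS2 (0.743) and ST14 lay farther from it than the median candidate did. They also lay farther than a flat profile, at 0.622. This distance counts the size of a swing as well as its direction. TMPRSS2 had the sign of the median in all 6 libraries, with wider swings (-2.01 in control 1). ELF3 differed in sign only in siRNA replicate 3, at 0.26. ST14 ran against the median, at 0.65 and 0.25 in control 1 and siRNA replicate 2. It was at -0.53 and -0.31 in control 4 and siRNA replicate 1, so the median was not a pattern shared by all 8.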

How the data were processed

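RNA from 12 cell line libraries was sequenced from both ends at 75 bp. The authors deposited 1 table of unnormalised read counts by Ensembl identifier. Per the submitters' processing notes, STAR 2.5.2a, Picard, featureCounts and Subread were used with hg19/GRCh37. Not given in the sources used here: the annotation release, the strand setting and how duplicates were treated. Without the strand setting, an overlapping or antisense gene could share reads with a listed gene. A name table matched 52181 of 63677 identifiers and gave symbols for 39699.

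All 12 libraries entered 1 model of group means (8 residual degrees of freedom) in edgeR 4.0.16 under R 4.3.3. TMM normalisation, filterByExpr at a minimum count of 10, the two-sided quasi-likelihood test and Benjamini-Hochberg adjustment over all tested genes at 0.05 were used. The SE is approximate, computed as |log2 fold change| over the root of F. Levels are TMM-normalised CPM. Levels per kilobase used union exon lengths of GENCODE on GRCh38, another build than that of the counts. Counting intervals and the 3-count limit cover counting error only. On simulated counts for 17862 genes, the line comparison recovered 18% of 2-fold and 63% of 4-fold changes with 2.41% false calls, and the PANC-1 siRNA comparison had 4.60% false calls. Replicates of a group differed by a chi-square per degree of freedom of 11.7 to 184, so none was a copy.

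The genes and gene lists were chosen with earlier results of these data known. All 10 genes are named; from each context list up to 4 with the smallest p in the line comparison under control siRNA, and all repressors. A result that this rule named is not reported here. Alternatives were DESeq2 1.42.0, limma-voom (limma 3.58.1), median-of-ratios size factors, no filter, separate fits of the lines, a replicate-number block, each library left out in turn, and PANC-1 control replicate 1 with RBM3 siRNA replicate 2 left out together.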

Additional observations from a re-analysis of the deposited data

How the results depend on the processing

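Under every alternative, 0 of the epithelial genes passed for RBM3 siRNA in either line or for the difference between the lines' responses. The separate fit of MIA PaCa-2 tested only ESRP1, ELF3, TMPRSS2 and ST14 of these, since the other 5 did not pass its filter. Between the lines, 6 to 8 passed under control siRNA and under RBM3 siRNA, with ELF3, ESRP1, OVOL2 and ST14 as the genes that moved across the threshold. Low counts limit GRHL2, OVOL2 and ST14 in both lines, and EPCAM, CDH1, ESRP2 and SPINT1 in MIA PaCa-2. Where a cause is not named, it was not tested.

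Over all genes, RBM3 siRNA in MIA PaCa-2 called 2 genes in edgeR, 21 in DESeq2, 1 in limma-voom and 0 with median-of-ratios size factors, and leaving out single libraries gave 0 to 3. In PANC-1 the 0 of edgeR became 3 in DESeq2, 230 (229 higher) with no filter, 1 with PANC-1 control 1 and RBM3 siRNA replicate 2 left out together, and 0 to 1 without single libraries. The difference between the responses gave 0, 3 in DESeq2 and 107 (103 higher) with no filter. Line differences under RBM3 siRNA numbered 7781, and 5463 to 9243 without single libraries.

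The fit with the replicate number as a block called 0 genes for RBM3 siRNA in MIA PaCa-2. The labels share only numbers, 2 per line. The deviations of same-numbered libraries correlated at 0.230 (number 1) and -0.149 (number 2) within MIA PaCa-2. For PANC-1 they correlated at -0.479 and -0.460, over 11765 genes. With the block, signs turned for OVOL2 (0.26) in MIA PaCa-2. They also turned in PANC-1 for ESRP1 (0.73), ELF3 (0.034), OVOL2 (-0.081), TMPRSS2 (0.25) and SPINT1 (0.039). For the difference between responses they turned for ESRP2 (0.12) and OVOL2 (-0.34). The line difference of ELF3 was then at an edgeR adjusted p of 0.0804 under control siRNA and 0.109 under RBM3 siRNA.

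In limma-voom the sign turned for ESRP1 (0.35) and OVOL2 (-0.16) in PANC-1 and for ST14 in the difference between responses (0.011). Leaving out single libraries turned the sign of the following values, none of which passed the test with all 12 libraries. In MIA PaCa-2 the log2 fold change ran from -1.56 to 0.25 for EPCAM, -0.47 to 0.078 for ESRP2, -0.70 to 6.43e-04 for ELF3 and -0.46 to 0.093 for ST14. In PANC-1 it ran from -1.13 to 0.10 for ESRP1, -1.13 to 0.35 for ELF3, -0.46 to 0.49 for OVOL2, -1.45 to 0.12 for TMPRSS2 and -0.71 to 0.0033 for ST14. The difference between responses ran from -0.55 to 1.25 for EPCAM, -0.78 to 0.71 for ELF3, -0.50 to 0.21 for ST14 and -0.20 to 3.13 for SPINT1. The line difference of ESRP1 under RBM3 siRNA ran from -0.37 to 0.79.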
